A study of Mus musculus with 2 samples.

Results

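The genes described here are 10 of those for bone morphogenetic proteins and related growth and differentiation factors of the mouse. They are Bmp1 to Bmp7, Gdf5, Gdf6 and Gdf10, chosen by symbol from the gene probes of the arrays. Other BMP and GDF genes, such as Bmp8a and Gdf7, are in a comparison list. All 10 were found, on 14 probes, of which 13 were well above background, and they make up 10 of the 21316 genes tested. The study cultured wildtype ureters of NMRI mouse embryos of mixed sex, taken at E12.5, for 18 h in medium containing NOGGIN at 10 µg/ml, or in medium that lacked it. NOGGIN is a secreted protein that binds BMPs outside the cell. Each of 2 Agilent 2-colour arrays carried labelled RNA of 1 NOGGIN culture and 1 control culture, with dyes exchanged. On array 1 the NOGGIN sample was green and the control red, and on array 2 the NOGGIN sample was red and the control green. The explants are whole ureters, so inner epithelium and outer mesenchyme are measured together, and fewer cells of a type and less RNA per cell cannot be told apart. How many embryos entered a culture, and whether the 2 replicates were separate litters, is not given in the labels. The spread between arrays may therefore be technical.

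BMPs are dimeric ligands that join type I and type II receptor kinases. The receptors phosphorylate SMAD1, SMAD5 and SMAD9, which enter the nucleus with SMAD4 and switch on genes such as those of the ID proteins. In the developing ureter BMP4 comes from the mesenchyme around the epithelial tube and is needed for smooth muscle formation. Ligands of this family fall into close relatives: BMP2 with BMP4, BMP5 with BMP6 and BMP7, GDF5 with GDF6, and BMP3 with GDF10. BMP1 carries the name but is a metalloprotease that cleaves procollagens and the BMP antagonist chordin.

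Across the 4 channels, 67.3% to 74.3% of gene spots stood well above background, and saturation affected 0 spots. With 2 arrays, precision is low. The tissue label was checked against marker genes. All 6 mesenchymal and all 11 epithelial markers of the ureter listed for this check were well above background in both conditions, as were all 5 smooth muscle genes. So were all 4 nephron progenitor, 4 endothelial and 3 neural markers, the stroma gene Foxd1, and 3 of 4 blood cell markers. Since markers of every listed cell type were above background, this check cannot tell ureter alone from ureter with other tissue.

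The direction of all ratios below follows the dyes in the labels and is not settled. Positive values mean a higher signal in the channel labelled NOGGIN. The authors' deposited table gives the opposite sign on both arrays for 9 of the 10 ligand genes. The exception is Bmp5, which was close to 0 on array 1. In that table the signed fold change of Gdf6 is 9.07 on array 1 and 14.4 on array 2, and that of Gdf5 is -2.55 and -3.14. With the table's sign, each gene called higher below would be lower, and each one called lower would be higher, at equal size and p. What does not depend on the sign is which genes moved together and which moved against each other.

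Of the 10 ligand genes 8 passed limma at an adjusted p of 0.05, against 7.99% of all genes tested. The members were chosen with earlier results of these data known. This share and the others in this paragraph therefore describe the 10 genes and are no test of the family. In the NOGGIN-labelled channel 6 were lower, namely Gdf6, Bmp2, Bmp7, Bmp3, Bmp4 and Bmp6, against 4.04% of all genes. Gdf5 and Gdf10 were higher, against 3.95% of all genes. Bmp1 and Bmp5 did not pass. A change of at least 1.5-fold in 1 direction on both arrays was seen for 7 ligand genes, against 2.90% of all genes, and of at least 2-fold for 6, against 0.84%. The signals of both NOGGIN-labelled channels lay on 1 side of both control-labelled channels for 8 of the 10, against 51.2% of all genes. The median mean log2 ratio was -0.87 over the ligand genes and 0.00084 over all genes. The median size without the sign was 1.34 for the ligand genes and 0.10 for all genes.

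**Figure D1:**
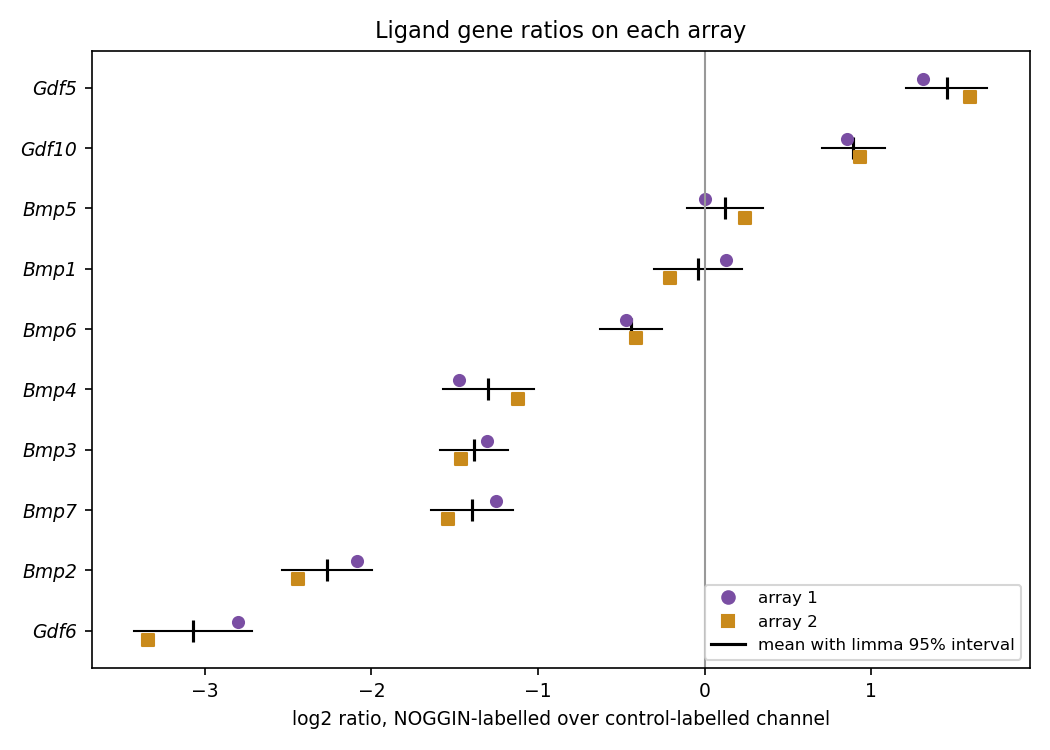
Log2 ratios of the NOGGIN-labelled over the control-labelled channel for each ligand gene, with array 1 (circles), array 2 (squares) and the mean with its 95% interval from limma (lines). Gdf6 lies lowest at -3.07 and Gdf5 highest at 1.45, and the intervals of Bmp1 and Bmp5 span 0.

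Values are given first as normalised log2 signals of each channel, which can be compared between channels of a gene but not between genes. Gdf6 encodes a ligand known for its part in joint and eye development. Its signal was 8.11 and 7.89 in the NOGGIN-labelled channels of arrays 1 and 2, against 10.91 and 11.23 in the control-labelled channels. The levels did not overlap, and both NOGGIN-labelled values stood about 3 log2 units under their controls. The log2 ratio was -2.80 on array 1 and -3.34 on array 2, with a mean of -3.07 ± 0.38 (SD, n = 2), an 8.39-fold difference (adjusted p = 0.00331, limma). Among the 21316 genes it ranked 1 by the size of the mean log2 ratio, and it kept that rank in each of the alternatives that were tested across genes. Its 4 spots per array were tight, between -2.83 and -2.75 on array 1 and between -3.39 and -3.31 on array 2.

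Gdf5, whose product shapes joints and is the closest listed relative of GDF6, moved against it. The Gdf5 signal was 12.26 and 12.16 in the NOGGIN-labelled channels and 10.94 and 10.57 in the control-labelled channels. Both NOGGIN-labelled values were above both controls. Its log2 ratio was 1.31 on array 1 and 1.59 on array 2, with a mean of 1.45 ± 0.20 (SD, n = 2), a 2.74-fold difference (adjusted p = 0.00427, limma). A dimmer probe of the gene gave 1.20 ± 0.16. The log2 ratio of Gdf5 exceeded that of Gdf6 by 4.11 on array 1 and by 4.93 on array 2, so the relatives differed in the same way on both arrays. Differences between relatives were computed for 5 pairs and have no test of their own.

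**Figure D2:**
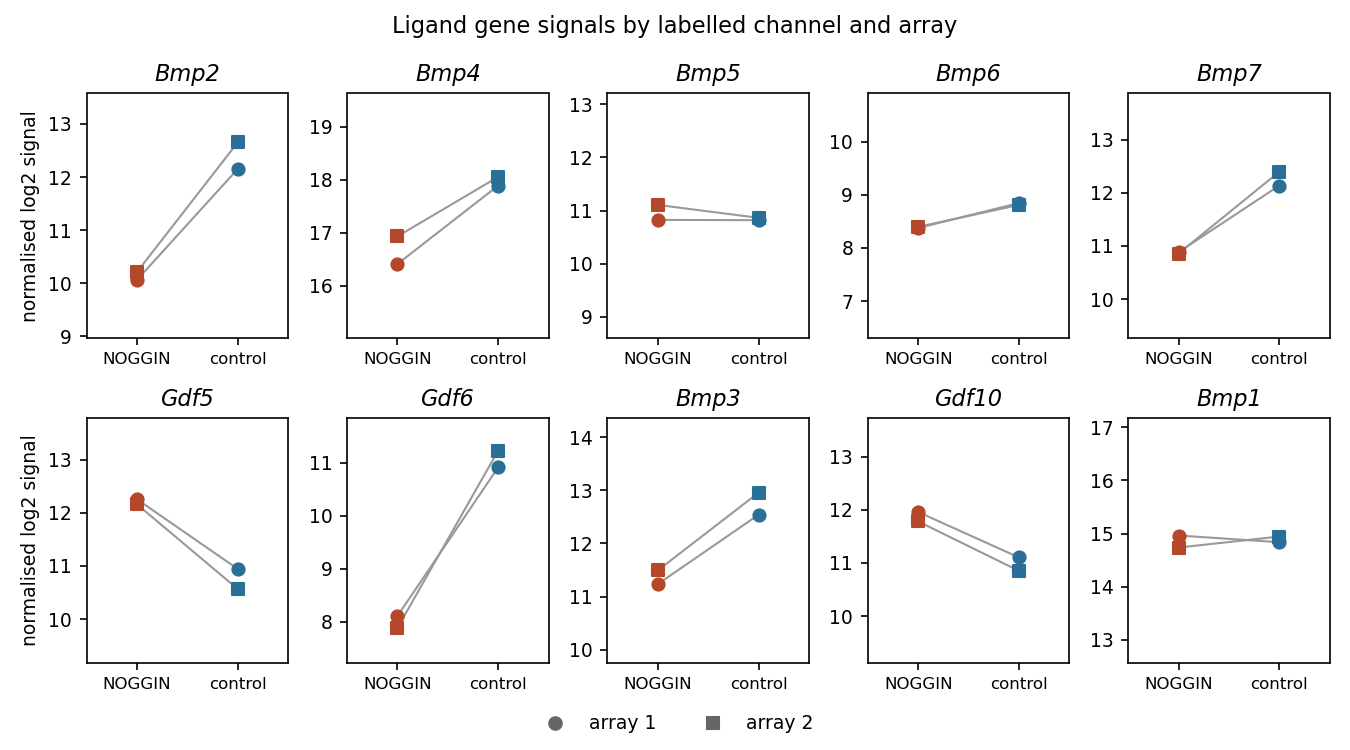
Normalised log2 signal of each ligand gene in the NOGGIN-labelled (left) and control-labelled (right) channel, with a line for each array (circles, array 1; squares, array 2). Each panel spans the same number of log2 units, so slopes can be compared; Gdf5 and Gdf10 slope down to the control channel, and Bmp2, Bmp3, Bmp4, Bmp6, Bmp7 and Gdf6 slope up to it.

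Bmp2 and Bmp4 encode the ligands that NOGGIN is best known to bind. The Bmp2 signal was 10.07 and 10.21 in the NOGGIN-labelled channels, against 12.15 and 12.65 in the control-labelled channels. The groups lay far apart. Bmp2 had log2 ratios of -2.09 and -2.44 on arrays 1 and 2 and a mean of -2.26 ± 0.25 (SD, n = 2), a 4.80-fold difference (adjusted p = 0.00331, limma). By size it ranked 8 of the 21316 genes, and between 7 and 40 over the alternatives.

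Bmp4 had the signals 16.41 and 16.93 in the NOGGIN-labelled channels, against 17.89 and 18.05 in the control-labelled channels. The channels did not overlap here either. The log2 ratio was -1.48 on array 1 and -1.12 on array 2, a mean of -1.30 ± 0.25 (SD, n = 2) and a 2.46-fold difference (adjusted p = 0.00607, limma). Bmp4 and Bmp6 were the ligand genes past the threshold whose change was larger on array 1 than on array 2. A second Bmp4 probe was dim in every channel of both arrays and was not used. The ratio of Bmp4 exceeded that of Bmp2 by 0.61 on array 1 and 1.32 on array 2, which means that Bmp2 had the larger change on both.

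The genes of the BMP5, BMP6 and BMP7 group had unlike ratios. Bmp7, known for its part in keeping nephron progenitors alive in the kidney, had signals of 10.88 and 10.86 in the NOGGIN-labelled channels, against 12.14 and 12.40 in the control-labelled channels. The NOGGIN-labelled values were nearly identical and well under the controls. Bmp7 gave log2 ratios of -1.25 and -1.54, with a mean of -1.40 ± 0.20 (SD, n = 2), a 2.63-fold difference (adjusted p = 0.00436, limma).

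Bmp6, whose product is known as a regulator of iron balance in the liver, differed by less. Its signals were 8.37 and 8.40 in the NOGGIN-labelled channels and 8.84 and 8.81 in the control-labelled channels. The separation was small but alike on both arrays. The mean log2 ratio was -0.44 ± 0.040 (SD, n = 2), a 1.36-fold difference (adjusted p = 0.0304, limma), and Bmp6 was the only ligand gene that passed without reaching 1.5-fold. It did not pass at a threshold of 0.01.

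Bmp5, known for its part in forming the outer ear cartilage, had 10.83 and 11.11 in the NOGGIN-labelled channels, against 10.82 and 10.86 in the control-labelled channels. The values overlapped. Its log2 ratio was 0.0054 on array 1 and 0.24 on array 2, a mean of 0.12 ± 0.17 (SD, n = 2), and it did not pass (adjusted p = 0.479, limma). The 95% interval ran from -0.10 to 0.35, which leaves out a change as large as that of Bmp7. The ratio of Bmp5 exceeded that of Bmp7 by 1.26 on array 1 and 1.78 on array 2, and the ratio of Bmp6 exceeded that of Bmp7 by 0.78 and 1.13.

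Bmp3 and Gdf10 encode close relatives, and BMP3 is known to oppose other BMPs in bone. Bmp3 had signals of 11.23 and 11.49 in the NOGGIN-labelled channels, against 12.54 and 12.96 in the control-labelled channels. All of its NOGGIN-labelled values lay below the controls. Bmp3 had log2 ratios of -1.31 and -1.46, a mean of -1.38 ± 0.11 (SD, n = 2) and a 2.61-fold difference (adjusted p = 0.00372, limma).

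Gdf10 went the other way. The Gdf10 signal was 11.96 and 11.78 in the NOGGIN-labelled channels and 11.10 and 10.85 in the control-labelled channels. The levels did not overlap. Log2 ratios of 0.86 and 0.93 gave a mean of 0.89 ± 0.053 (SD, n = 2), a 1.86-fold difference (adjusted p = 0.00610, limma). The ratio of Gdf10 exceeded that of Bmp3 by 2.16 on array 1 and by 2.39 on array 2. As with Gdf5 and Gdf6, these relatives had opposite signs on both arrays.

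Bmp1 was measured by 3 probes above background, which did not give the same picture. On the brightest the signal was 14.96 and 14.74 in the NOGGIN-labelled channels, against 14.84 and 14.94 in the control-labelled channels, so the values overlapped. Its log2 ratio was 0.13 on array 1 and -0.21 on array 2, with a mean of -0.040 ± 0.24 (SD, n = 2; adjusted p = 0.868, limma) and a 95% interval from -0.30 to 0.22. The dimmer probes gave -0.23 ± 0.027 and -0.19 ± 0.044, each negative on both arrays. With the mean of the probes in place of the brightest, Bmp1 was at -0.15 and did not pass either (adjusted p = 0.279).

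**Figure D3:**
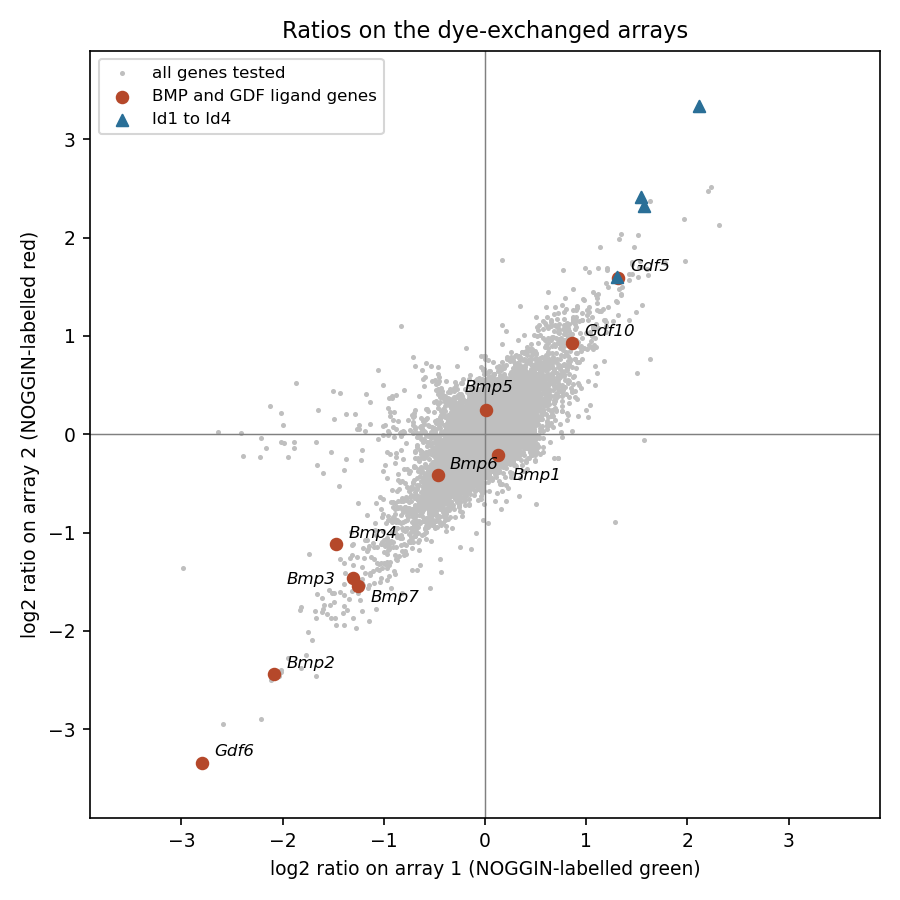
Log2 ratio of each gene on array 1 (horizontal) and array 2 (vertical), NOGGIN-labelled over control-labelled, with ligand genes in red, Id1 to Id4 as triangles and all other genes tested in grey. Gdf6 and Bmp2 lie at the low end, Gdf5 lies on top of Id3 at 1.3 and 1.6, and Bmp1 is the ligand gene with opposite signs on the arrays.

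The calls of all 8 ligand genes were lost where loess was replaced by centring on the array median. There the adjusted p ranged from 0.0869 to 0.234, while the mean log2 ratios of these genes kept their sign and 7 still changed by 1.5-fold on both arrays. That setting left 0 calls over all genes in limma, where 3568 had an unadjusted p below 0.05.

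Promoter sequence was at hand for 4 of the 10 ligand genes, Bmp4, Bmp5, Bmp6 and Gdf10, from RefSeq on GRCm38.p6. The 250 bases upstream of the gene start are shown for those that passed, to set members that were lower beside the one that was higher. Capitals mark matches to CANNTG, the E-box read by basic helix-loop-helix factors, some of which ID proteins hold back. The Bmp4 stretch is chr14:46390670-46390919 on the minus strand, that of Bmp6 is chr13:38345466-38345715 on the plus strand, and that of Gdf10 is chr14:33923337-33923586 on the plus strand.
Bmp4: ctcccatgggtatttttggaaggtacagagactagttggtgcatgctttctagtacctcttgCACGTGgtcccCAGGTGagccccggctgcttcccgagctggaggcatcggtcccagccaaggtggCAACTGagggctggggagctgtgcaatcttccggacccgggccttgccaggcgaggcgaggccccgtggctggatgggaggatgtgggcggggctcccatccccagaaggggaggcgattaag
Bmp6: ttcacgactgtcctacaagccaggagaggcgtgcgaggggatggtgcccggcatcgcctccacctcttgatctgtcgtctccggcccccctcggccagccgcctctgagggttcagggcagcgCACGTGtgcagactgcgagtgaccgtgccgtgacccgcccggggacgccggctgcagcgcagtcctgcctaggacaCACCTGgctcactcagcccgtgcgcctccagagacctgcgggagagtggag
Gdf10: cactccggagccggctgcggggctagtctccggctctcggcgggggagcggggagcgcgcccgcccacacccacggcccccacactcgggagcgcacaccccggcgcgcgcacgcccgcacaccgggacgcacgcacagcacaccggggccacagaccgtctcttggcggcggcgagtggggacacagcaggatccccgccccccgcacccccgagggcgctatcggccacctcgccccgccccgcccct
Bmp4 held 3 E-boxes, Bmp6 2, and Gdf10 and Bmp5 0, where 66.2% of all 32851 promoter windows of the same length held at least 1. Whether these sites bear on the direction of change was not tested. The letters GGCGCC, a GC-rich SMAD site, and GTCTAGAC, the palindromic SMAD site, were searched on both strands and had 0 matches in the 4 windows. They occur in 9.59% and 0.167% of all windows. The windows of Gdf10 and Bmp6 were rich in G and C, at 78.8% and 68.8%, against 63.2% for Bmp4 and 42.8% for Bmp5.

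Genes with the ratios nearest to those of each ligand gene changed 2-fold on both arrays were found by distance over the 2 arrays, on the log2 scale. Gdf5 was nearest to Id3, which encodes one of the ID inhibitors, at a distance of 0.014, then to the FGF receptor gene Fgfr3 at 0.10 and to Snai1, a zinc finger repressor gene, at 0.11. For Gdf6 the growth factor gene Fgf18 was nearest, though only at 0.45, followed by Adamts16 at 0.74 and Adcy7, an adenylyl cyclase gene, at 1.09. A second Adamts16 probe gave only -0.98. For Bmp2 the nearest were Tmem132c, Adcy7 and Lrig1, between 0.057 and 0.074. Bmp3 was nearest to Adamts8, Cyp1b1 and Mybpc1 (0.036 to 0.056), although a second Adamts8 probe gave only -0.20. Bmp7 was nearest to Wipf3, Cltrn and Cited4 (0.022 to 0.038). Bmp4 was nearest to Fgf21, Ifitm1 and Bnc2 (0.15 to 0.20), with Fgf21 not well above background in the NOGGIN-labelled channel of array 2. With 2 arrays, nearness says only that a pair of ratios is alike.

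Most other ligand genes of the TGF-beta superfamily did not pass. Of 22 listed, 17 were measured and 2 passed, against 8 of the 10 genes described here and 7.99% of all genes. This list also holds BMP and GDF genes, among them Bmp8a at 0.033 and Bmp8b at -0.087, which did not pass. The contrast is therefore not one between BMP and GDF genes and the rest of the superfamily. Both lists were chosen with earlier results of these data known, so the contrast describes them and tests nothing. The median log2 ratio of the 17 was 0.027. Gdf7, a relative of Gdf5 and Gdf6, was higher in the NOGGIN-labelled channel by 0.84 ± 0.085 (SD, n = 2; adjusted p = 0.00759, limma), but its other probe gave -0.55, and the mean of its probes, 0.14, did not pass (adjusted p = 0.289). Inhba, which encodes an activin subunit, was lower at -0.72 ± 0.093 (SD, n = 2; adjusted p = 0.0107). The other 15, among them the 3 Tgfb genes, lay close to 0 and did not pass. Bmp10, Bmp15, Gdf2, Mstn and Amh were not well above background.

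Target genes of the pathway had the opposite sign to most of the ligand genes. All 6 listed target genes passed as higher in the NOGGIN-labelled channel, against 3.95% of all genes, with a median log2 ratio of 1.70. Id2, Id1, Id4 and Id3 were at 2.73 ± 0.87, 1.98 ± 0.62, 1.94 ± 0.53 and 1.45 ± 0.21 (SD, n = 2 each). Of these 4, Id2 had the widest spread, at 2.11 on array 1 and 3.34 on array 2. Of 6 SMAD genes 3 were higher and 0 lower (50% passed, against 7.99% of all genes). Smad9, a receptor-activated SMAD, was at 2.37 ± 0.20, and the inhibitory Smad6 and Smad7 were at 1.01 ± 0.17 and 0.55 ± 0.082. Gdf5 and Gdf10 thus shared a sign with the targets on both arrays, and the 6 ligand genes that were lower had the opposite sign. Higher target genes rest on the dyes in the labels, and are the reverse of what a block of BMPs by NOGGIN would give. By the same dyes 4 of 5 smooth muscle genes were lower and 0 higher in the NOGGIN-labelled channel, and smooth muscle formation needs BMP4. The authors' deposited table has Id1 to Id4 negative on both arrays, from Id3 (-2.48 and -3.19) to Id2 (-4.19 and -10.5). Which sign is right was not tested.

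Among 15 measured genes of secreted antagonists and binding proteins, 5 were higher and 3 lower (53.3% passed, against 7.99% of all genes). Their median log2 ratio was 0.21. Chrdl1 and Nog, whose products bind BMPs and block them, were higher by 1.87 ± 0.15 and 1.53 ± 0.15 (SD, n = 2 each). Chrdl2, a chordin-like gene, was higher by 1.39 ± 0.061, with only a share of 0.75 of its spots above background in the control-labelled channel of array 1. Its log2 ratio was larger with Agilent's processed signals, at 2.22, and in the authors' deposited table with the sign turned, at 2.28. The mouse Nog transcript is what the probe reads, not the added protein. The 3 that were lower were Nbl1, Sostdc1 and Fstl3, at -1.36 ± 0.28, -1.03 ± 0.053 and -0.47 ± 0.010.

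Receptor genes and the protease group mostly did not pass. Of 12 receptor and coreceptor genes 1 was higher and 1 lower (16.7% passed, against 7.99% of all genes), with a median log2 ratio of 0.053. They were Bambi, a decoy receptor gene whose control-labelled channel was near background on both arrays, so that its size is not given, and Tgfbr3, a coreceptor gene, at -0.48 ± 0.087 (SD, n = 2; adjusted p = 0.0282, limma). The call of Tgfbr3 was lost under 3 alternatives. The protease list held 6 measured genes, of which 1 passed and 5 did not (16.7% passed, against 7.99% of all genes). The 5 were Furin, Pcsk5, Pcsk6, Pcsk7 and Tll1, which encode proteases. The one that passed was Pcolce, which encodes an enhancer of the BMP1 protease and no protease itself, at -0.55 ± 0.035 (adjusted p = 0.0180), while Bmp1 did not pass.

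**Figure D4:**
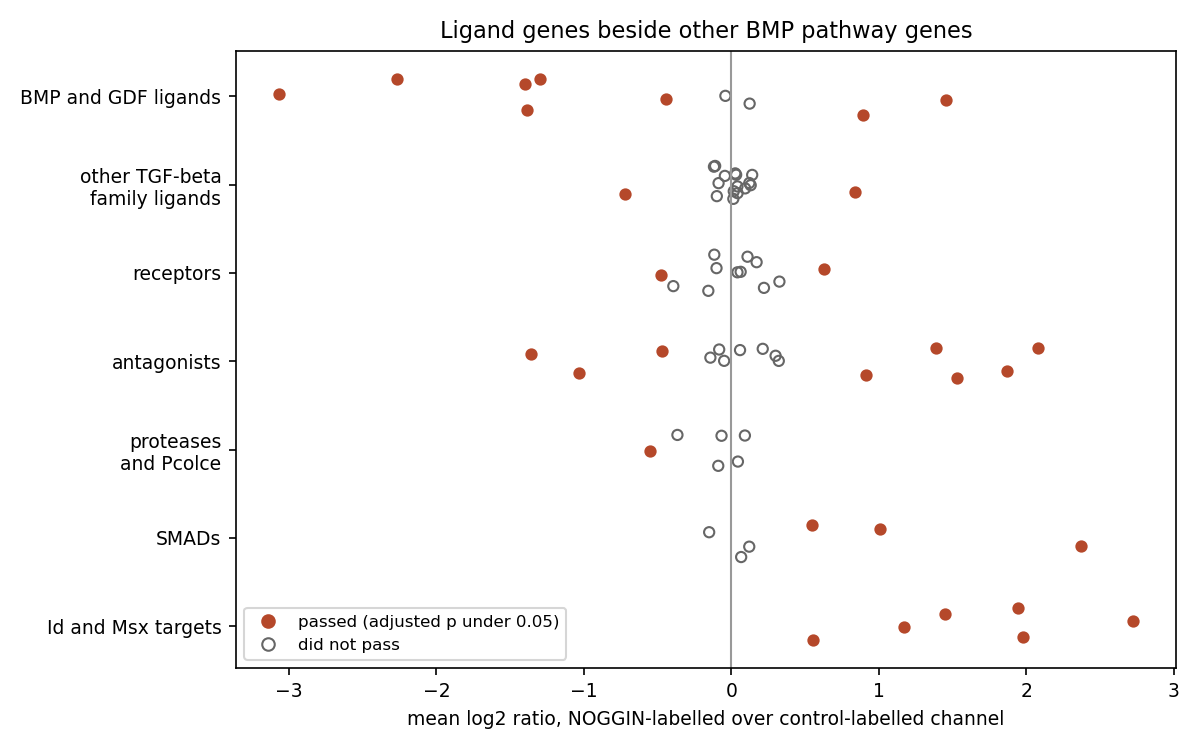
Mean log2 ratio of the NOGGIN-labelled over the control-labelled channel for the 10 ligand genes and for other genes by role; filled points passed limma at an adjusted p of 0.05 and open points did not. Ligand genes spread from -3.07 to 1.45, while the 6 target genes all lie above 0.

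Markers of cell types moved beside the ligand genes in part, and their share in these results was not tested. Over all genes, 3.95% were higher and 4.04% lower in the NOGGIN-labelled channel. Of 5 smooth muscle genes 4 were lower and 0 higher in the NOGGIN-labelled channel, and their summed signal was 200265 and 214626 in the NOGGIN-labelled channels, against 448752 and 445092 in the control-labelled channels. The ureteric mesenchyme list, the layer that makes Bmp4, had 2 of 6 higher and 1 lower, with sums of 219053 and 193773 in the NOGGIN-labelled channels, against 219161 and 240886 in the control-labelled channels. The epithelial list had 1 of 11 higher and 1 lower, with sums of 233455 and 237257 in the NOGGIN-labelled channels, against 207957 and 226005 in the control-labelled channels. Foxd1 was lower, at a log2 ratio of -0.80. None of the nephron progenitor, endothelial, blood or neural markers passed, 0 of 14 measured, with log2 ratios between -0.29 and 0.45. With 7.99% of all genes passing, a count of 0 among so few genes says little.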

How the data were processed

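RNA of cultured mouse ureters was measured on 2 Agilent 2-colour arrays on 1 slide, scanned together per the file headers. Amplified RNA from 200 ng of starting material carried Alexa Fluor dyes, read as green and red, per the labels' protocols.

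Spot brightness in the deposited scanner files is a linear intensity. The submitters' processing notes name Agilent Feature Extraction, version 10.7.3.1. A log10 ratio (red over green) that the software wrote, per the file headers, was not used. The authors' deposited table holds a score, a signed fold change in which a ratio under 1 appears as minus its inverse. The labels do not state its normalisation. Its median is 1 on both arrays, and over 25586 probes its log2 values correlated at -0.965 with the label-oriented ratios on each array. Its values thus run in parallel with the ratios apart from the sign, but sizes can differ. With the sign turned, Gdf6 is at -3.52 there against -3.07 here, and Chrdl2 at 2.28 against 1.39. The direction of that table is unknown.

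The background was corrected with normexp (offset 50), and each array was normalised with loess, with control, filler and outlier spots at weight 0. The 4 spots of a probe were averaged. Channel signals were taken after quantile scaling of the mean intensities between arrays. A probe was kept if, in 1 condition or both, over 0.5 of its spots on each array stood well above background, and the brightest kept probe stood for a gene. Accessions were named through RefSeq (GRCm38.p6), which gave a symbol for 28328 of 39429 probes. Of the 21316 genes tested, 15794 had a symbol. Each accession without one was counted as a gene of its own, and nearest genes were sought only among those with a symbol. Log2 ratios were tested against 0 over 21316 genes in limma 3.58.1 (lmFit, eBayes; R 4.3.3) by a two-sided test with Benjamini-Hochberg adjustment. There was 1 residual degree of freedom, and moderation added 4.13 around a prior SD of 0.113. The steps were run on simulated data with 200 changed genes, which gave 206 calls, 193 of them true and 13 false. The simulated dye trend was a smooth one that loess can remove, so this run cannot judge the choice of normalisation.

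All 10 members are named, with up to 4 leading genes of each pathway list past the threshold and the 3 nearest genes of each member changed 2-fold. A gene that this rule names among the antagonists is not reported here. Nbl1, Sostdc1 and Fstl3 were named as the falling members of their list, after their values were seen. Members and lists were chosen with earlier results of these data known. The alternatives were other background corrections, normalisations, filters, summaries, forms of the test, thresholds, the deposited table and each array alone.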

Additional observations from a re-analysis of the deposited data

How the results depend on the processing

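With the sign of the authors' deposited table the mean log2 ratios become 3.07 for Gdf6, 2.26 for Bmp2, 1.40 for Bmp7, 1.38 for Bmp3, 1.30 for Bmp4, 0.44 for Bmp6, 0.040 for Bmp1, -0.12 for Bmp5, -0.89 for Gdf10 and -1.45 for Gdf5. Bmp1 ranged from -0.21 without replicate 1 to 0.13 without replicate 2, where its sign turned. No other ligand gene changed sign under the alternatives that keep the direction of the labels, over which Gdf6 ranged from -3.55 to -2.80 and Bmp2 from -2.44 to -2.09. The count of 8 ligand genes past the threshold was 0 with median centring in place of loess, 7 at an adjusted p of 0.01 and 8 in each other tested alternative. Under median centring the other superfamily ligands, the other pathway genes and all genes also had 0 calls, against 2, 20 and 1704, and 8 ligand genes had an unadjusted p under 0.05 in limma. At an adjusted p of 0.01 those 3 counts were 1, 13 and 378, and at 0.10 all genes had 2698. With the mean of a gene's probes the other superfamily ligands had 1 call, since Gdf7 no longer passed. The count of 7 ligand genes changed 1.5-fold on both arrays was 6 at 2-fold. On each array alone it was also 7, where it could not have been lower. An array alone leaves no residual degrees of freedom, so it gives values with no test. The test is already paired, because each ratio compares the 2 cultures of 1 array, which leaves no further block to add. The probe used for each ligand gene was well above background in both channels of both arrays. Sizes still moved with the handling of background. Gdf6 was at -3.07 in the main setting, -3.35 with a normexp offset of 0 and -3.55 with Agilent's processed signals. Bmp6 was at -0.44, -0.51 and -0.54 in the same settings.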
